A study of Mus musculus with 16 samples.

Results

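MYC and 9 genes of its network were followed through ribosome footprints and cytoplasmic RNA of mouse lung tumour cells with and without eIF4A2. The members were taken by symbol from a list: *Myc*, *Mycl* and *Mycn*, their dimer partner *Max*, the MAX-binding antagonists *Mxd1*, *Mxi1*, *Mxd4*, *Mnt* and *Mga*, and the related *Mlx*. They are 10 of the 20622 genes in the total RNA tables, and all 10 also have a transcript among the 15235 genes of the footprint tables. After a filter on low counts, 9 members were tested in footprints and 8 in total RNA.

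KM cells are a line grown from left-lobe lung tumours of 1 male mouse at clinical endpoint. Its genotype includes Rosa26 LSL-MYC/LSL-MYC, so both cell lines carry human MYC added on both Rosa26 alleles. KM_NTC received a lentiviral non-targeting guide, and KM_4A2cr a guide to the coding region of *Eif4a2*, after which 4 clones without eIF4A2 protein on western blot were pooled. The cells were otherwise untreated and close to confluent. Ribosome-protected fragments (RPFs) and total cytoplasmic RNA were made from each lysate, in 4 replicates per line, which the paper calls individual experiments, giving 16 libraries. The comparison asks how the translation and the level of each mRNA differed between KM_4A2cr, which lacks the helicase eIF4A2, and KM_NTC. Each condition is 1 line, so loss of eIF4A2, the guide used and the selection of clones cannot be told apart. Which of them a difference between the lines comes from was not tested. In the study's KM mice the LSL-MYC alleles were opened by an intranasal adenovirus with Cre under the surfactant protein C promoter, and no sample without the MYC transgene was compared here.

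MYC proteins are transcription factors that bind DNA as dimers with MAX. MYC-MAX dimers sit at E-boxes and raise the expression of genes for ribosome assembly, nucleotide synthesis and growth. MXD, MXI1, MNT and MGA compete for MAX and recruit repressor complexes, and MLX pairs with MNT, some MXD proteins and the glucose-responsive factors MLXIP and MLXIPL. *Myc* mRNA and protein are both short-lived, and *Myc* is known as an mRNA whose translation depends on the eIF4F cap-binding complex.

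The canonical E-box, CACGTG, reads the same on both strands and was searched in the RefSeq promoter windows of GRCm38.p6, 300 bases from 250 before to 50 after each start. It was found in 4 of 11 windows of the members (36.4%) and in 2349 of 32851 windows of all genes (7.15%). Windows were listed for 9 members, and *Myc* was not among them. The 4 matches are shown because they are the site that the members' own proteins bind, with the E-box in capitals and 12 bases on each side.
*Mxd4*, chr5:34187912-34187941, minus strand: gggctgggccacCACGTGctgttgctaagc
*Mnt*, chr11:74830789-74830818, plus strand: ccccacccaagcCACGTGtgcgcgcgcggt
*Mlx*, chr11:101087238-101087267, plus strand: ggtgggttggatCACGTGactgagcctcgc
*Max*, chr12:76962234-76962263, minus strand: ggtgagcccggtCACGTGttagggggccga
Counted from the start site, the first E-box base lies at -219 in *Mxd4*, -123 in *Mnt*, -40 in *Mlx* and -3 in *Max*. A match describes the letters of the window and is not a measured binding site.

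RPF libraries held 4512403 to 9621848 counts and total RNA libraries 5350919 to 9312622. The 8 epithelial markers were all above 1 CPM (counts scaled to library size, with TMM factors), summing to 9284 to 15059 CPM in RPFs. Of 10 alveolar type 2 markers, 2 (*Abca3* and *Etv5*) passed 1 CPM in RPFs, and *Sftpc*, the marker that defines these cells, was at 0 in all 16 libraries. Fibroblast markers reached 1 CPM for 1 of 8 genes (*Pdgfra*) and endothelial markers for 1 of 4 (*Kdr*). Leukocyte markers summed to 75.1 to 779 RPF CPM, nearly all *Cd68*, with *Cd3e* at 0 throughout. *Eif4a2* footprints were lower in KM_4A2cr in 4 of 4 pairs, with a log2 fold change of -0.49 (SE 0.15, edgeR adjusted p = 0.0941), and its RNA differed by -0.18 (SE 0.13, edgeR adjusted p = 0.504). The human MYC gene has no row of its own in these tables, so its reads and those of mouse *Myc* cannot be told apart where they match.

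Per transcript length, *Myc* was the member with the highest mean RNA level in KM_NTC, at 111 ± 20.9 TPM, RSEM's length-scaled unit (SD, n = 4). *Max* followed at 71.2 ± 23.2 TPM and *Mxi1* at 51.2 ± 16.2 TPM. *Mlx* had 23.7 ± 7.74 TPM, *Mga* 22.1 ± 2.89 TPM, *Mxd4* 11.1 ± 2.86 TPM and *Mxd1* 8.62 ± 2.47 TPM. *Mnt* was at 1.75 ± 0.43 TPM and *Mycl* at 0.29 ± 0.16 TPM. Neighbours in this order overlapped in their range over 4 libraries for *Myc* and *Max*, *Max* and *Mxi1*, *Mlx* and *Mga*, and *Mxd4* and *Mxd1*. *Mxi1* did not overlap *Mlx*, *Mga* did not overlap *Mxd4*, and *Mnt* stood apart from both *Mxd1* and *Mycl*. *Mycn*, a MYC relative of embryonic and neural tissue, had 0 counts in all 8 total RNA libraries, where 0 allows up to 3 counts or 0.270 to 0.691 CPM. It had 4 footprint counts over the KM_NTC libraries and 0 over those of KM_4A2cr, and was not tested.

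**Figure D1:**
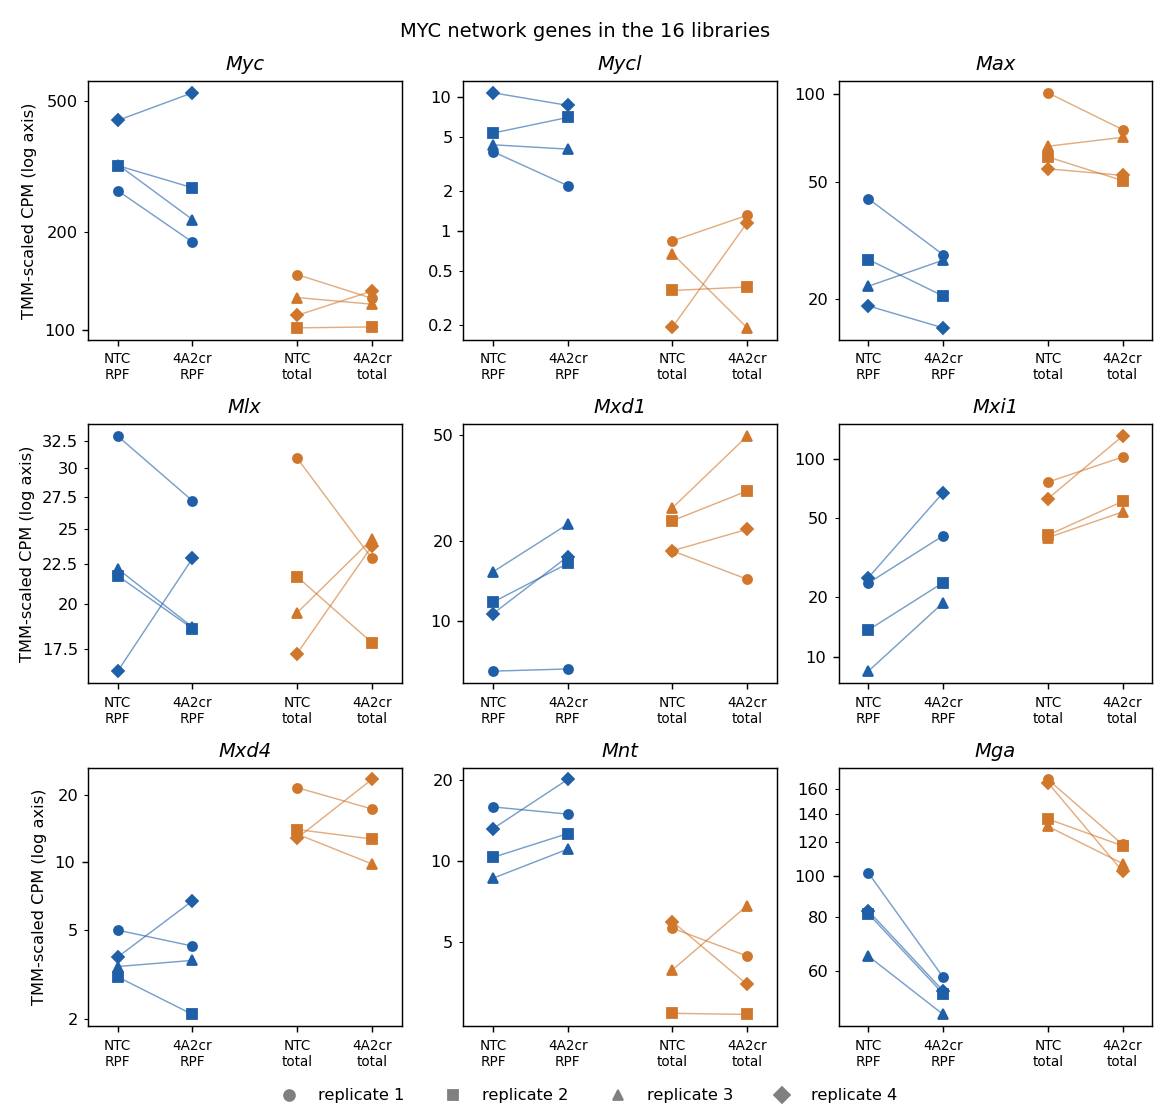
TMM-scaled CPM on log axes for 9 members in KM_NTC and KM_4A2cr, RPFs in blue and total RNA in orange. Each line joins the 2 libraries of a replicate, marked by shape; the lines of *Mxi1* all slope up and those of *Mga* all slope down, while for *Myc* footprints the line of replicate 4 slopes up and the other 3 slope down.

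Across all genes, 1062 of 10291 were called in RPFs at an adjusted p under 0.1 (10.3%), 679 of them higher in KM_4A2cr (6.60%) and 383 lower (3.72%). In total RNA 667 of 10880 genes were called (6.13%), 473 higher (4.35%) and 194 lower (1.78%). Translational efficiency (TE), the change of RPFs beyond that of total RNA, was called for 287 of 9989 genes (2.87%). Among the members, 2 of 9 were called in RPFs, *Mxi1* higher and *Mga* lower, and 1 of 8 in total RNA, *Mxi1* higher. In TE 0 of 8 were called by edgeR, and 3 had an unadjusted p under 0.05, beside 1409 of 9989 genes in all. DESeq2 gave an adjusted TE p for *Myc*, *Max*, *Mxi1* and *Mga*, of which 0 were called. The median member changed by -0.10 on the log2 scale in RPFs and -0.02 in total RNA, beside -0.01 and 0.01 over all genes tested. These calls rest on fitting the replicates as pairs: without the replicate block edgeR called 0 genes in RPFs, total RNA or TE, with 365, 362 and 22 at an unadjusted p under 0.05. In bulk lysates, fewer cells with an mRNA and less of it per cell cannot be told apart.

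**Figure D2:**
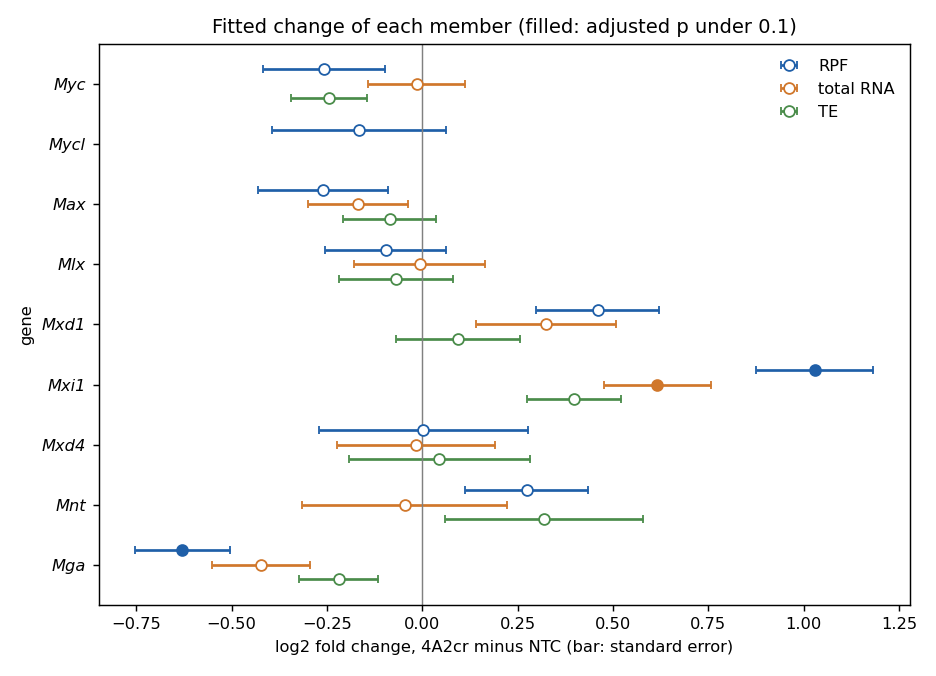
Log2 fold change of KM_4A2cr over KM_NTC with its standard error for RPFs, total RNA and TE, with filled points for an adjusted p under 0.1. *Mxi1* is filled in RPFs and total RNA and *Mga* in RPFs; *Mycl* was tested in RPFs alone.

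*Myc* is the central activator of the network. Its RPF level in KM_NTC was 267, 318, 320.4 and 437 CPM in replicates 1 to 4, and in KM_4A2cr 186, 272, 218 and 530.5 CPM. The groups overlap: KM_4A2cr was lower in replicates 1, 2 and 3 and higher in replicate 4, which held the highest level of both lines. Within pairs the log2 differences were -0.52, -0.22, -0.56 and 0.28. The fitted change was -0.26 (SE 0.16) and did not pass the test (edgeR adjusted p = 0.372). Without replicate 4 it was -0.43 and was called (edgeR adjusted p = 0.00908). Without replicate 1 it was -0.17, without replicate 2 -0.26 and without replicate 3 -0.13, with edgeR adjusted p = 0.693, 0.667 and 0.809. *Myc* RNA was at 148, 102, 126 and 111 CPM in KM_NTC against 125, 102, 120.0 and 132 CPM in KM_4A2cr. Its pair differences were -0.24, 0.01, -0.07 and 0.25, so in RNA as in RPFs replicate 4 had the clear rise. The fitted change of its RNA was -0.01 (SE 0.13, edgeR adjusted p = 0.971), and without replicate 4 it was -0.11 (edgeR adjusted p = 0.473).

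Footprints of *Myc* relative to its RNA, as CPM over CPM, were 1.80, 3.13, 2.55 and 3.94 in the KM_NTC replicates and 1.48, 2.66, 1.81 and 4.03 in KM_4A2cr. The ratio differed more between replicates than between the lines, as both were lowest in replicate 1 and highest in replicate 4. In replicates 1 to 3 the ratio was lower in KM_4A2cr, and in replicate 4 both lines were nearly equal. The TE change was -0.24 (SE 0.10) and did not pass over all genes (edgeR adjusted p = 0.243), with 3 of 4 pairs below 0. Without replicate 4 it was -0.31 and was called (edgeR adjusted p = 0.0359). It was not called without replicate 1, 2 or 3, and without replicate 3 it was -0.13 (edgeR adjusted p = 0.701). Leaving out replicate 4 also raised the RPF calls over all genes from 1062 to 3469.

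**Figure D3:**
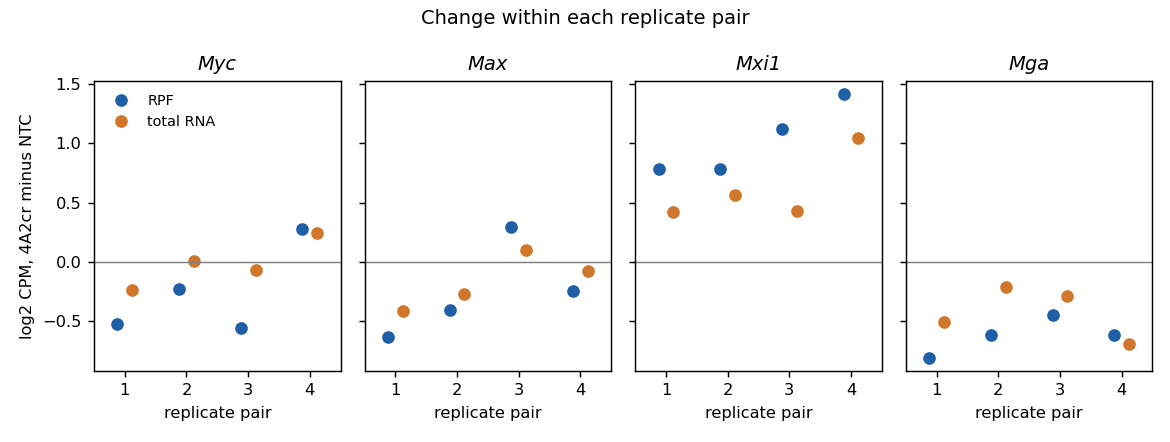
Log2 CPM difference of KM_4A2cr minus KM_NTC within each replicate pair for *Myc*, *Max*, *Mxi1* and *Mga*, in RPFs and total RNA. *Mxi1* lies above 0 and *Mga* below 0 in all 4 pairs of both kinds, while *Myc* RPFs lie between -0.56 and -0.22 in replicates 1 to 3 and at 0.28 in replicate 4.

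*Mycl*, a MYC family member first known from lung cancer, was scarce in RNA, with 1 to 8 total RNA counts in a library. Its RPF counts were higher, 32 to 54 in KM_NTC and 18 to 57 in KM_4A2cr. The RPF level was 3.89, 5.36, 4.38 and 10.7 CPM in KM_NTC and 2.17, 7.01, 4.07 and 8.62 CPM in KM_4A2cr. As for *Myc*, replicate 4 was the highest in both lines, and the groups overlap. The change of -0.17 (SE 0.23) did not pass the test (edgeR adjusted p = 0.706). For *Mycl*, *Myc* and *Mnt*, the RPF CPM lay above the total RNA CPM in 8 of 8 lysates, for *Mlx* in 5 of 8, and for the other 5 tested members in 0 of 8. These ratios are not per length and do not rank the members by translation.

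*Max* encodes the partner that MYC, MXD, MNT and MGA all need. Its RPF level was 43.9, 27.2, 22.1 and 18.9 CPM in KM_NTC and 28.3, 20.4, 27.1 and 15.9 CPM in KM_4A2cr. KM_4A2cr was lower in 3 of 4 pairs, replicate 3 being the exception, and the groups overlap. The change was -0.26 (SE 0.17, edgeR adjusted p = 0.396) in RPFs and -0.17 (SE 0.13, edgeR adjusted p = 0.543) in total RNA. Total RNA had the same pattern by pair, at -0.42, -0.27, 0.10 and -0.07 on the log2 scale. *Mlx*, the MAX-like partner, had 16.4 to 32.95 RPF CPM in KM_NTC and 18.6 to 27.2 CPM in KM_4A2cr. Its change was -0.10 (SE 0.16, edgeR adjusted p = 0.753) in RPFs and -0.01 (SE 0.17, edgeR adjusted p = 0.991) in total RNA. In RPFs *Mlx* of KM_4A2cr lay below KM_NTC in replicates 1, 2 and 3 and above it in replicate 4, by 0.48 on the log2 scale.

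*Mxi1* was the member with the largest change. It encodes a MAX partner that recruits the SIN3 corepressor and opposes MYC. Its RPF level was 23.6, 13.7, 8.49 and 25.2 CPM in KM_NTC, and 40.9, 23.7, 18.8 and 67.6 CPM in KM_4A2cr. Levels differed between replicates by more than between lines, so the groups overlap, but within every pair KM_4A2cr was higher, by 0.79, 0.78, 1.12 and 1.42 on the log2 scale. The fitted change was 1.03 (SE 0.15, edgeR adjusted p = 0.0111). DESeq2 gave 1.04 with an adjusted p of 4.07e-05. The edgeR call was lost without replicate 3 (1.03, adjusted p = 0.146) and held without each of the others.

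*Mxi1* RNA rose as well. It stood at 76.3, 41.2, 40.03 and 62.8 CPM in KM_NTC and at 102, 61.0, 54.0 and 130.2 CPM in KM_4A2cr, higher in 4 of 4 pairs. The fitted change was 0.62 (SE 0.14, edgeR adjusted p = 0.0448), and DESeq2 also called it. It kept its size without replicates 1, 2 or 3, at 0.68, 0.63 and 0.68, but none of those fits called it in edgeR (adjusted p = 0.118, 0.224 and 0.225). Without replicate 4 it was smaller, at 0.46, and was called (edgeR adjusted p = 0.00215). The TE change of *Mxi1*, footprints beyond RNA, was 0.40 (SE 0.12), above 0 in 4 of 4 pairs, but was not called (edgeR adjusted p = 0.108). Of 8 annotated *Mxi1* isoforms 7 were tested in total RNA, all with a change above 0 between 0.36 and 1.03, and 4 were called (lowest edgeR adjusted p = 0.0341). These 4 were also the only calls among 22 tested isoforms of the members, beside 4.64% of 19596 isoforms in all. RSEM divides reads that isoforms share, and the 5 *Myc* isoforms each held 18.6% to 21.5% of *Myc* TPM in KM_NTC, so values of single isoforms are uncertain.

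*Mxd1*, induced in many cells that leave the cell cycle, had 6.52, 11.8, 15.3 and 10.7 RPF CPM in KM_NTC and 6.64, 16.5, 23.1 and 17.5 CPM in KM_4A2cr. It was higher in 4 of 4 pairs, by 0.03 in replicate 1 and by 0.47 to 0.70 in the others, and the groups overlap. The change was 0.46 (SE 0.16) and was not called (edgeR adjusted p = 0.132); without replicate 4 it was 0.40 and was called (edgeR adjusted p = 0.0893). *Mxd1* RNA differed by 0.32 (SE 0.18, edgeR adjusted p = 0.397), with 3 of 4 pairs above 0.

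*Mxd4* and *Mnt* were also not called. *Mxd4*, another MAX-dependent repressor, had 17 to 55 footprint counts in a library and an RPF change of 0.00 (SE 0.27, edgeR adjusted p = 0.997), which is below 0 under upper-quartile scaling, under library sizes alone and without a filter. *Mxd4* RNA was 12.8 to 21.6 CPM in KM_NTC and 9.85 to 23.5 CPM in KM_4A2cr, a fitted change of -0.02 (SE 0.21). *Mnt*, the broadly expressed MAX-binding repressor, had 8.63 to 15.9 RPF CPM in KM_NTC and 11.1 to 20.2 CPM in KM_4A2cr. Its RPF change was 0.27 (SE 0.16, edgeR adjusted p = 0.346), higher in 3 of 4 pairs, and its RNA change -0.05 (SE 0.27, edgeR adjusted p = 0.956). With 15 to 40 RNA counts in a library, the TE of *Mnt* was 0.32 with an SE of 0.26 (edgeR adjusted p = 0.626). Of the 4 members with an E-box in the windows above, *Mxd4*, *Mnt*, *Mlx* and *Max*, 0 were called in RPFs, total RNA or TE by edgeR. Of all genes, 10.3%, 6.13% and 2.87% were called. None of the 4 had an unadjusted edgeR p under 0.05, beside 2411 of 10291, 1995 of 10880 and 1409 of 9989 genes. With 4 genes, a count of 0 does not set them apart from the other genes.

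*Mga* footprints fell. The gene encodes a very large MAX partner that carries a T-box domain and works in a Polycomb-type repressor complex. Its RPF level was 102, 81.6, 64.9 and 82.9 CPM in KM_NTC, and 58.0, 53.0, 47.4 and 53.9 CPM in KM_4A2cr. Every KM_4A2cr library was below every KM_NTC library, a separation seen for 219 of 10291 genes in RPFs (2.13%) and for no other member. Within pairs the differences were -0.81, -0.62, -0.45 and -0.62, and the fitted change was -0.63 (SE 0.12, edgeR adjusted p = 0.0265). DESeq2 called it too (adjusted p = 0.00409). In edgeR the size stayed between -0.66 and -0.57 with 1 replicate left out, and the call was lost without replicate 1, 2 or 3 (adjusted p = 0.133, 0.212 and 0.194).

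In total RNA *Mga* was at 168, 136, 131 and 166 CPM in KM_NTC and at 119, 118, 107 and 103 CPM in KM_4A2cr. These groups did not overlap either, as for 214 of 10880 genes (1.97%), yet the change of -0.42 (SE 0.13) just missed the threshold (edgeR adjusted p = 0.113). It was called without replicate 4 at -0.34 (edgeR adjusted p = 0.0133). The TE change of *Mga* was -0.22 (SE 0.10, edgeR adjusted p = 0.343).

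*Mga* lies on chromosome 2, where values were lower as a whole. Of 833 tested genes there 85 were called lower in RPFs (10.2%), against 2.91% of 9252 genes on other chromosomes, with medians of -0.21 and 0.01. In total RNA 5.33% of 900 genes on chromosome 2 were called lower, against 1.39% elsewhere, with medians of -0.17 and 0.02. The 5 tested genes on each side of *Mga*, in RefSeq order, had RPF changes from -0.77 to 0.08 with a median of -0.39. Below 0 were 9 of these 10, and 4 were called lower: *Oip5* (-0.77), *Nusap1* (-0.66), *Ehd4* (-0.45) and *Vps39* (-0.52). In total RNA 8 of 10 were below 0, and *Nusap1* and *Ehd4* were called. The part of the chromosome in the value of *Mga* was not tested.

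**Figure D4:**
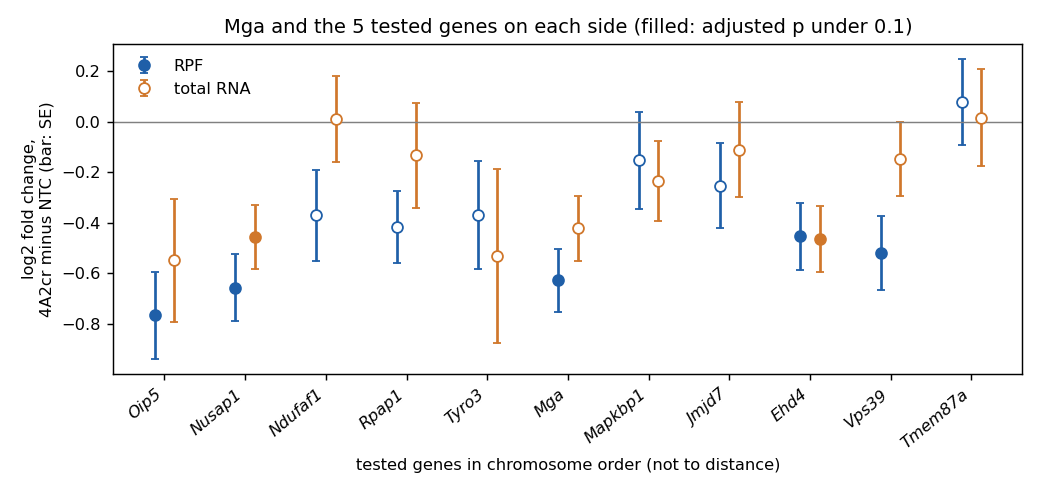
Log2 fold change with its standard error for *Mga* and the 5 tested genes on each side, in the order they take along chromosome 2, in RPFs and total RNA. Filled points have an adjusted p under 0.1; 4 neighbours are filled in RPFs and 2 in total RNA, all below 0.

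Over the 8 RPF libraries, log2 CPM of *Myc* was most alike to that of *Rusc2* (Pearson r 0.992), *Klf11* (0.990), *Mbtd1* (0.989), *Jmjd1c* (0.986) and *Epn2* (0.982). Over total RNA, the 5 genes most alike were *Szrd1* (0.962), *Mrpl18* (0.956), *Bccip* (0.912), *Nanos1* (0.905) and *Glrx5* (0.903). None of the genes is in both lists of 5. Among the members, *Mycl* was the most alike to *Myc* in RPFs (0.861) and *Max* the least (-0.660), whereas in total RNA *Max* and *Myc* had an r of 0.701. The points of each r are libraries of 4 replicates, 2 to a replicate, and in RPFs they include the high *Myc* level of replicate 4.

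Cofactors around the network were described as a list of 25 genes for MLX partners, SIN3-HDAC and NCOR repressors and coactivators of MYC, 23 of them tested. In RPFs 1 was called, and it was lower: *Ruvbl2*, an ATPase of the TIP60 and INO80 chromatin complexes, by -0.46 (SE 0.12, edgeR adjusted p = 0.0679), beside 3.72% of all genes called lower. The median was -0.13 in RPFs and -0.04 in total RNA, with 18 and 14 of 23 below 0, beside 51.1% and 48.4% of all genes. The 1 RPF call was lost without replicate 1, 2 or 3. In the fit without replicate 4 the list had 7 called lower, beside 14.3% of all genes. The total RNA median ranged from -0.0060 without replicate 1 to -0.15 without replicate 4. *Actl6a*, an actin-like subunit of the same complexes, was the 1 gene called in total RNA (-0.43), beside 1.78% of all genes called lower. That call was lost with DESeq2 and without replicate 1, 2 or 3. In TE 2 of 23 were called, both lower, beside 2.87% of all genes called. *Trrap*, the scaffold that MYC uses to bring acetyltransferases, was lower by -0.39 (SE 0.10, edgeR adjusted p = 0.0524) and its partner *Ep400* by -0.36 (SE 0.10, edgeR adjusted p = 0.0900). *Actl6a*, *Trrap* and *Ep400* were named after their values were seen.

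Of 20 genes for MYC protein turnover, all tested, 1 was called higher and 2 lower in RPFs, beside 6.60% and 3.72% of all genes, with a median of -0.05. Without replicate 1 the median was 0.04 and 1 gene was called, and without replicate 2 or 3 none was. *Ppp2r5a*, a regulatory subunit that directs phosphatase 2A to MYC, rose by 0.56 (SE 0.15, edgeR adjusted p = 0.0774) and in TE by 0.54 (SE 0.13, edgeR adjusted p = 0.0534). It was the 1 TE call of this list, beside 2.87% of all genes. *Aurka* and *Plk1*, mitotic kinases that also stabilise MYC proteins, fell by 0.75 (SE 0.16, edgeR adjusted p = 0.0370) and by 0.85 (SE 0.19, edgeR adjusted p = 0.0409) on the log2 scale. *Aurka* lies on chromosome 2, whose genes were lower as given for *Mga*. Both are also known as cell cycle genes, highest in dividing cells, and *Plk1* is also in the list of MYC targets. *Cip2a*, an inhibitor of phosphatase 2A named after its value was seen, was the 1 call in total RNA (-0.51, edgeR adjusted p = 0.0513), beside 1.78% of all genes called lower. The *Cip2a* call was lost without replicate 1, 2 or 3.

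Of 16 genes for proteins that bind *Myc* mRNA or its promoter, 15 were tested and 2 called in RPFs, both lower, beside 3.72% of all genes called lower, with a median of -0.16. Without replicate 1, 2 or 3 none was called. Without replicate 4 the calls were 7 lower and 1 higher, beside 14.3% and 19.1% of all genes. The median was -0.088 without replicate 1 or 3 and -0.26 without replicate 4. *Igf2bp1*, which shields the coding region of *Myc* mRNA from decay, fell by 0.60 on the log2 scale (SE 0.15, edgeR adjusted p = 0.0649). *Fubp1*, which binds single-stranded DNA upstream of *Myc*, fell by 0.43 (SE 0.13, edgeR adjusted p = 0.0879). *Igf2bp2*, named after its values were seen, was lower in total RNA by -0.48 (edgeR adjusted p = 0.0872) and higher in TE by 0.51 (edgeR adjusted p = 0.0264). Footprints of *Igf2bp2* differed by 0.02 (SE 0.13, edgeR adjusted p = 0.941), so the TE value goes with the lower RNA. Its total RNA call was lost without replicate 1, 2 or 3. Of all genes, 1.78% were called lower in total RNA and 2.87% were called in TE.

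Genes known to be activated by MYC, 63 in all and mostly nucleolar, ribosome assembly and nucleotide synthesis genes, lay below 0 for the most part. Of 62 tested in RPFs, 53 were below 0 with a median of -0.25, beside -0.01 and 51.1% below 0 over all genes. KM_4A2cr was lower in 4 of 4 pairs for 26 of the 62, and for 16.0% of 10277 genes with a symbol. The list medians by replicate pair were -0.26, -0.14, -0.12 and -0.39. A link between these medians and the level of *Myc* was not tested. In total RNA 46 of 63 were below 0 with a median of -0.16, and pair medians were -0.19, -0.18, -0.05 and -0.19. The RPF median stayed between -0.39 and -0.19 under 11 other settings and that of total RNA between -0.32 and -0.13 under 12.

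These targets were also tested one by one. In RPFs 2 of 62 were called, both lower, beside 3.72% of all genes called lower. They were *Plk1*, given above, and *Mybbp1a*, a nucleolar protein that binds MYB and acts in ribosome production (-0.44, SE 0.12, edgeR adjusted p = 0.0679). In total RNA 0 of 63 were called by edgeR, beside 6.13% of all genes, and 0 by DESeq2. At an unadjusted edgeR p under 0.05 were 13 of the 63, beside 1995 of 10880 genes in all. Without replicate 4, 21 were called lower and 3 higher in RPFs, and 18 lower and 2 higher in total RNA. In those fits 33.4% of all genes were called in RPFs (14.3% lower, 19.1% higher) and 29.8% in total RNA (12.0% lower, 17.8% higher). Calls without replicate 1, 2 or 3 were at most 1 in RPFs and 0 in total RNA. In TE 1 was called, beside 2.87% of all genes. It was *Pprc1*, a coactivator of mitochondrial gene expression, lower by -0.52 (edgeR adjusted p = 0.0543), named after its value was seen. The E-box was in 17 of 63 promoter windows of this list (27.0%), beside 7.15% of the windows of all genes.

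**Figure D5:**
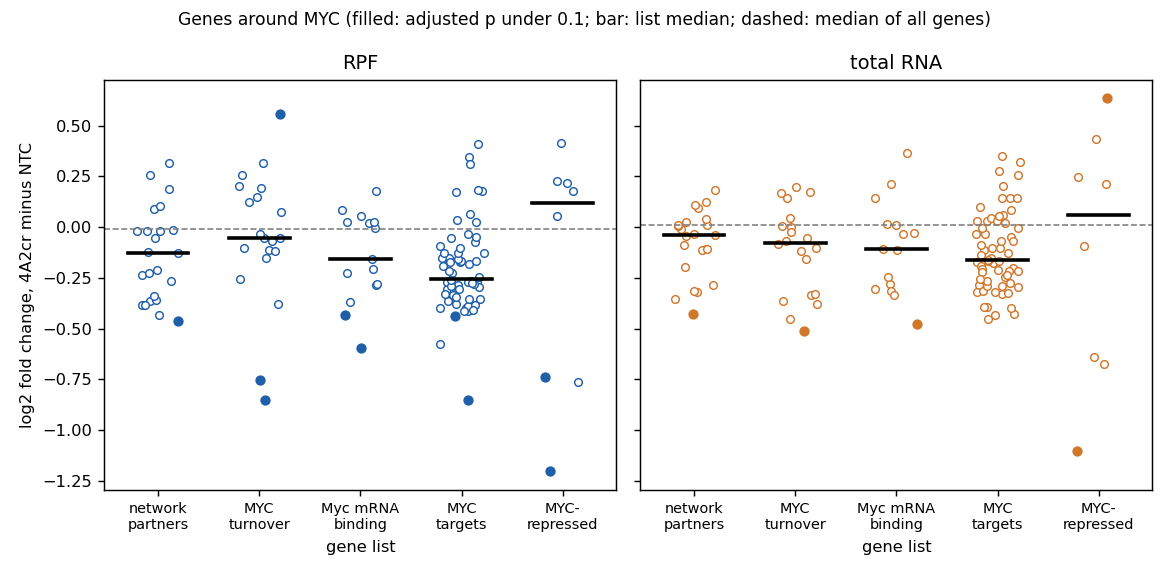
Log2 fold change of each tested gene in 5 lists around MYC, RPFs on the left and total RNA on the right, with the list median as a bar and the median of all genes as a dashed line. Filled points have an adjusted p under 0.1; the MYC targets lie mostly below the dashed line, with a median of -0.25 in RPFs and -0.16 in total RNA.

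Of 10 genes known to be repressed by MYC, 8 were tested. In RPFs 2 were called, both lower, beside 3.72% of all genes called lower, and neither was called without replicate 2 or 3. They were *Cdkn2b*, an inhibitor of the kinases CDK4 and CDK6, by -1.20 (SE 0.21, edgeR adjusted p = 0.0195), and *Thbs1*, the matrix protein thrombospondin, by -0.74 (SE 0.19, edgeR adjusted p = 0.0679). *Thbs1* also lies on chromosome 2. The list median was 0.12 in RPFs and 0.06 in total RNA, and it changed sign without replicate 4, to -0.12 and -0.11, while without replicate 2 it was 0.15 and 0.13. In total RNA *Cdkn2b* fell by 1.10 on the log2 scale (edgeR adjusted p = 0.00260), and *Cdkn1a*, a CDK inhibitor named after its value was seen, rose by 0.63 (SE 0.17, edgeR adjusted p = 0.0794), a call lost without replicate 1, 2 or 3. Of all genes, 1.78% were called lower and 4.35% higher in total RNA. *Cdkn1a* footprints differed by 0.41 (SE 0.23, edgeR adjusted p = 0.325). The 0 promoter windows of 9 with an E-box in this list say nothing of binding elsewhere.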

How the data were processed

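RPFs and total RNA of KM_NTC and KM_4A2cr cells were analysed, with 4 libraries of each kind per line. The deposited RPF tables hold whole-number read counts for each transcript, made by the authors after trimming (Cutadapt 1.18), alignment with BBmap to the most abundant GENCODE vM27 protein-coding transcript of each gene, and UMI-tools 1.0.1. Footprints over the coding sequence were counted, without its ends. For total RNA the authors deposited RSEM 1.3.3 expected counts and TPM per isoform (Bowtie2 2.3.5.1, SAMtools 1.9). Expected counts were summed per gene and rounded.

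edgeR 4.0.16 quasi-likelihood tests (R 4.3.3, limma 3.58.1) used filterByExpr, TMM and the replicate number as a block, with Benjamini-Hochberg adjustment over all genes and a threshold of 0.1. TE was the interaction of line and kind of library in 1 model of 16 libraries. Log2 CPM had a prior count of 2. Replicate numbers, which the sample titles give, were taken to pair the libraries. Deviations from line means correlated within these pairs at 0.575 to 0.782 in RPFs and 0.611 to 0.756 in total RNA. Both kinds were scaled within their kind, so a change shared by all mRNAs is not seen. DESeq2 1.42.0, other scalings, filters and left-out replicates were alternatives, and the tests were tried on simulated data.

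Members and gene lists were chosen with earlier results of these data known. All members, *Eif4a2*, the called genes with the 3 smallest RPF p of each list and the 5 genes most alike to *Myc* were named by rule. Chromosomes and promoters are from RefSeq GRCm38.p6, another build than the files. Replicates are cultures of 1 line, so p-values measure their spread. A floor of 3 counts covers counting error only. A further allele that both lines share is not reported here.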

Additional observations from a re-analysis of the deposited data

Results flagged for a closer look

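Of 34 groups of 4 libraries of the members, 1 held a library far from the others: *Mxd4* total RNA in KM_NTC, where replicate 1 stood at 21.6 CPM against 12.8 to 14.0 CPM in the other 3. The gap was 0.830 of the range of the group on the log2 scale, just above the critical value of Dixon's test for 4 values. Chance alone marks about 1 in 20 such groups.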

How the results depend on the processing

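Without the replicate block, 0 genes were called in RPFs, total RNA and TE, 0 isoforms and 0 members of any kind (edgeR, with 365, 362 and 22 genes at an unadjusted p under 0.05), whereas *Mxi1* and *Mga* kept their size in RPFs, at 1.08 and -0.64. With 1 replicate left out, calls ranged from 32 to 3469 genes in RPFs, 63 to 3260 in total RNA, 15 to 800 in TE and 96 to 5182 isoforms, and from 0 to 4, 0 to 2, 0 to 2 and 0 to 7 among the members. The upper end came in each case without replicate 4. An adjusted p of 0.05 left 438, 321 and 75 genes. Library sizes alone gave 1619, 1130 and 133 genes, with 29.8% of the RPF calls and 23.2% of the total RNA calls higher beside medians shifted by -0.14 and -0.16, and 2 members in total RNA. Without a filter there were 1268 genes and 2 members in total RNA and 470 genes and 1 member in TE; RLE scaling gave 1 member in TE, and DESeq2 138 genes in TE. Upper-quartile scaling put 53.5% of RPF calls higher. In RPFs *Mxd4* reversed to -0.036, -0.13 and -0.0077 under upper-quartile scaling, library sizes and no filter, in total RNA to 0.030 without the block, and *Mlx* RNA to 0.082 with the RPF isoform alone. Left-out replicates took *Mxd4* from -0.22 to 0.18 in RPFs, -0.30 to 0.11 in total RNA and -0.066 to 0.18 in TE, *Mycl* from -0.40 to 0.012 in RPFs, and in total RNA *Myc* from -0.11 to 0.061, *Mnt* from -0.36 to 0.15 and *Mlx* from -0.16 to 0.15, with *Mlx* TE from -0.16 to 0.12. The cause was not tested. Of the members' values under all alternatives, 279 kept their direction and side of the threshold, 9 became called, 10 lost their call and 18 changed sign. With under 60 footprint counts in a library, changes of *Mxd4* and *Mycl* have an SE of 0.27 and 0.23.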
